A study of Mus musculus with 9 samples.

Results

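The distinct read sequences annotated as tRNA were described in small RNA libraries of mouse serum, as a measure of how many different tRNA fragments a library held and how evenly its reads were spread over them. A member is a row of a library's table of non-miRNA small RNAs whose class is tRNA alone, with its raw count and a sequence number. Over 9 libraries there were 38489 such rows of 74900 rows of all listed classes, where a sequence present in several libraries is counted once in each. Between 4577 and 5070 members were listed per control library, 6523 to 7532 per beads-depleted library and 772 to 1284 per RNase H-depleted library. A further 3 sequences annotated as both piRNA and tRNA, with 3 counts in all, were not members. The sequence number orders the sequences of its own library by count and starts again in the next library, so a row in one library could not be matched to a row in another. The bases, the tRNA type and the position within the tRNA were not analysed here, and the class of a row could therefore not be checked against its sequence.

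Serum came from healthy, sedated 129/SVj mice of both sexes, aged 2 to 9 months. The labels name 3 serum pools, A, B and C, while the study's methods speak of aliquots of a pool from 3 mice, in which case replicates differ by handling alone. Portions of each pool's RNA went into 3 groups of 3 libraries: control, with no depletion; beads, in which biotinylated DNA probes against the 5′ tRNA-half fragments of glutamine, glycine, valine and histidine tRNAs were pulled out on streptavidin beads; and RNase H, in which the RNA strand bound to the same kind of probe was cut by this enzyme. A targeted tRNA type could not be told from an untargeted one in these rows.

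Transfer RNAs carry amino acids to the ribosome, and in stressed or dying cells they can be cut in the anticodon loop into a 5′ and a 3′ fragment. The 5′ fragments are stable in the circulation and are known as an abundant small RNA of mouse serum. Each tRNA type is encoded by many gene copies, some identical and some different by a few bases, and fragments of one tRNA can begin or end at different bases, so many distinct read sequences can come from a single tRNA type.

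Control libraries held between 3648482 and 4580374 tRNA counts, beads-depleted libraries between 742691 and 1644636, and RNase H-depleted libraries between 10528 and 50119. Reads annotated as tRNA were 93.1% to 94.9% of the listed counts in control libraries, 26.6% to 46.5% in beads-depleted libraries and 21.5% to 31.2% in RNase H-depleted libraries. Listed counts leave out sequences that have no listed class and are not miRNAs, so these are not shares of all reads. Of the 100 most abundant sequences, 96 to 98 were in no listed non-miRNA class with RNase H and 54 to 57 in control. The tRNA share of all reads was therefore not measured. The smallest share set as detectable, 3 counts of the tRNA total, was at most 0.000404% in control and beads-depleted libraries and between 0.00599% and 0.0285% in RNase H-depleted libraries. Reads carried no molecular identifiers, so this floor and all intervals cover counting error only. Each measure below gives 1 value per library, and groups were compared with a two-sided exact permutation test, whose smallest possible p with 3 against 3 libraries is 0.1. No comparison could thus pass 0.05, and a p of 0.1 says only that the values of the groups did not overlap. Of the 27 comparisons made (9 measures, 3 pairs of groups), 18 reached this p, with a Benjamini-Hochberg adjusted value of 0.15 each, and the others had adjusted values of 0.284 to 1.

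A single sequence dominated the tRNA reads of undepleted serum. The most abundant tRNA sequence had 1732014 counts in control pool A, 2034914 in pool B and 1615534 in pool C. These were 43.8% (Wilson 95% confidence interval 43.7% to 43.8%), 44.4% (44.4% to 44.5%) and 44.3% (44.2% to 44.3%) of the tRNA counts, so the 3 pools differed by less than 1 percentage point. In each control library this sequence had number 1, and was the most abundant sequence of the whole library. The next tRNA sequence was 3.80, 4.18 and 4.12 times less abundant in pools A, B and C. Ranks 2 to 4 held 10.6% to 11.5%, 8.85% to 9.33% and 8.41% to 8.93% of the tRNA counts and had library-wide numbers 3, 4 and 5 in every control library. Rank 5 held 3.57% to 3.72%, after which the counts dropped by a factor of 1.55 to 1.59 to rank 6. The leading part of the profile was therefore nearly the same in the 3 control pools, although without the bases it cannot be said that the same sequences held the same ranks.

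After depletion with beads the sequence at rank 1, which need not be the one at rank 1 in control libraries, was much less dominant. It had 268588 counts in pool A, 133235 in pool B and 346610 in pool C, or 19.8% (19.7% to 19.9%), 17.9% (17.9% to 18.0%) and 21.1% (21.01% to 21.14%) of the tRNA counts. All 3 values lay below all 3 control values, and the mean share of 19.6% ± 1.58 (SD, n = 3) was 24.6 percentage points under the control mean of 44.2% ± 0.329 (exact permutation p = 0.1). The step from rank 1 to rank 2 was also smaller, with ratios of 1.56 to 1.71. In RNase H-depleted libraries the leading sequence had 11561, 1244 and 4222 counts in pools A, B and C. It held 23.1% (22.7% to 23.4%), 11.8% (11.2% to 12.4%) and 24.8% (24.1% to 25.4%) of the tRNA counts. Pool B had the lowest share, and its first and second sequences were nearly level, with a ratio of 1.11. The mean of 19.9% ± 7.04 (SD, n = 3) was again below every control value (exact permutation p = 0.1) and differed from the beads mean by 0.285 points, far less than its SD (exact permutation p = 1).

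**Figure D1:**
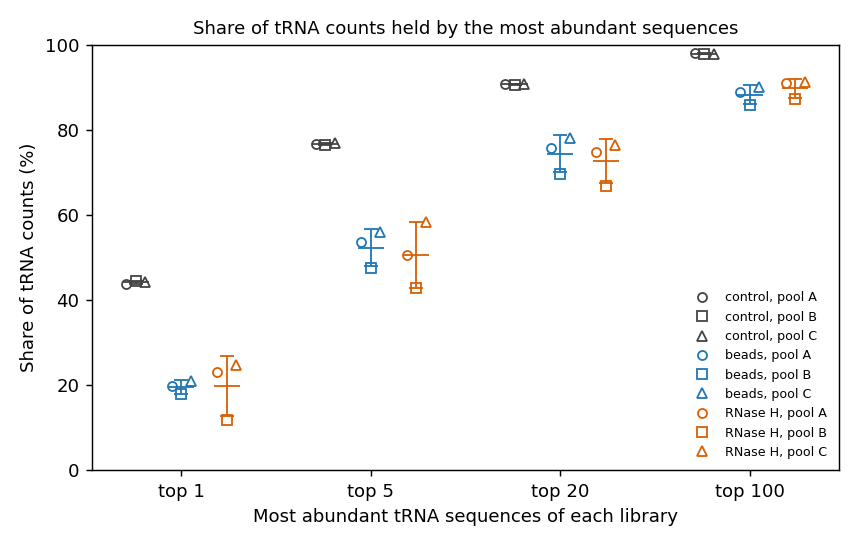
Share of the tRNA counts of a library (%, y axis) held by its 1, 5, 20 and 100 most abundant tRNA sequences (x axis), with a point per library, shape for the serum pool, and the mean ± SD of 3 libraries per group. The control points of the 3 pools coincide and lie above all points of both depleted groups, whose pool B is the lowest in each group.

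The same order held further down the ranks. The 5 most abundant sequences held 76.4% to 76.8% of the tRNA counts in control libraries, 47.4% to 56.0% in beads-depleted libraries and 42.9% to 58.2% in RNase H-depleted libraries. For the top 20 the shares were 90.5% to 90.7%, 69.6% to 77.9% and 66.7% to 76.5%, and for the top 100 they were 97.8% to 98.0%, 85.7% to 90.0% and 87.1% to 91.1%. At each of these limits both depleted groups lay entirely below the control group (exact permutation p = 0.1 each), and the depleted groups overlapped each other (exact permutation p = 0.5 to 0.8). Within pools, however, the RNase H-depleted library lay below its beads-depleted partner for the top 20 share in all 3 pools, by a mean difference of -1.74 points, and above it for the top 100 share in all 3 pools, by 1.53 points (exact sign-exchange permutation p = 0.25 each, the smallest possible). For the top 1 and top 5 shares the direction differed between pools. The difference of the mean shares, beads minus control, was -24.3 percentage points for the top 5, -16.2 for the top 20 and -9.67 for the top 100. For RNase H minus control it was -26.0, -18.0 and -8.14 percentage points. Drawing the same number of tRNA counts, 10528, from every library left the group means almost in place, for instance 19.6% against 44.2% for the top sequence of beads-depleted and control libraries (exact permutation p = 0.1). In control libraries 2 sequences were enough to reach 50% of the tRNA counts and 19 to reach 90%, in all 3 pools. Beads-depleted libraries needed 4 to 6 and 100 to 187 sequences, and RNase H-depleted libraries 4 to 8 and 86 to 144.

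Beads-depleted libraries had fewer raw tRNA counts than control libraries at the top of the rank order and more at its end. The leading sequence had 0.139 times the control count on average, and ranks 2 to 5 had 0.317 times, ranks 6 to 20 had 0.482 times and ranks 21 to 100 had 0.566 times. All other tRNA sequences, beyond rank 100, summed to 151722, 106172 and 163655 counts in beads-depleted pools A, B and C and to 79814, 101833 and 79191 in control pools A, B and C. This was 1.62 times as many on average, and the groups did not overlap. Within pools the ratio was 1.90, 1.04 and 2.07, so the excess was small in pool B, the pool with the fewest tRNA counts after depletion with beads. In every pool the ratio of beads-depleted to control counts was higher in each band than in the band before it, from 0.0655 to 1.04 in pool B and from 0.215 to 2.07 in pool C. Counts were compared here at equal rank, and a sequence that lost more reads than others also lost its rank. Reads removed from one sequence are taken up by others in a library of given size, so a raw count above control does not say that more of a fragment was present in the serum.

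**Figure D2:**
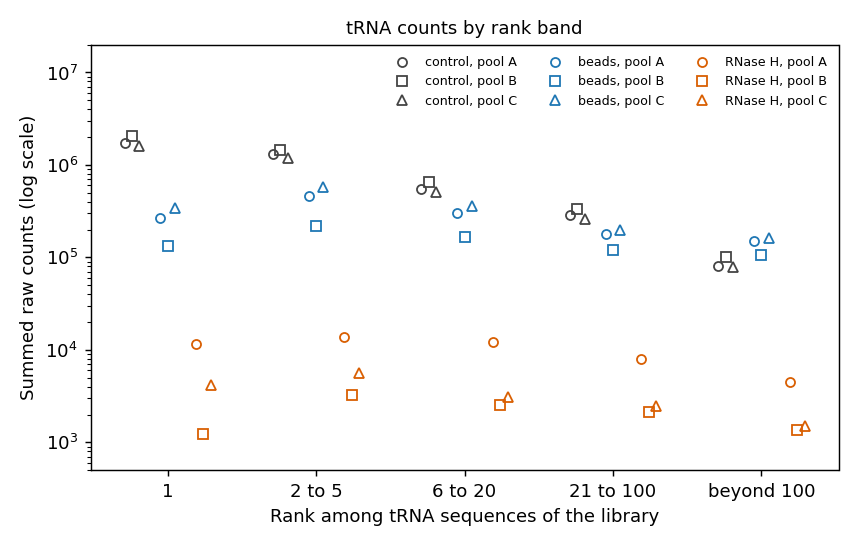
Summed raw counts (log scale, y axis) of the tRNA sequences of rank 1, 2 to 5, 6 to 20, 21 to 100 and beyond 100 in their library (x axis), with a point per library, colour for the group and shape for the serum pool. Beads-depleted libraries lie below control libraries in the first 4 bands and above them beyond rank 100, while RNase H-depleted libraries lie far below both in all bands.

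RNase H-depleted libraries had fewer tRNA counts in every band. The mean ratio to control was 0.00316 for rank 1, 0.00577 for ranks 2 to 5, 0.0104 for ranks 6 to 20, 0.0145 for ranks 21 to 100 and 0.0285 beyond rank 100. The ratio beyond rank 100 was thus higher than that for rank 1, as with beads, but no band of these libraries reached the control counts. These are raw counts, not corrected for the size of the library. The listed counts of all classes were 47252 to 160581 with RNase H, against 3904095 to 4920457 in control and 2796718 to 3538246 with beads. The lack of a band above control is therefore not a contrast with beads at equal depth. Beyond rank 100 they held 4554, 1356 and 1511 counts in pools A, B and C. Pool A had the highest ratio to control in each band. For rank 1 the ratio was 0.00667 in pool A, 0.000611 in pool B and 0.00261 in pool C, and beyond rank 100 it was 0.0571, 0.0133 and 0.0191. These means rested on pool A, and without it the ratio of the means was 0.00150 for rank 1, 0.00338 for ranks 2 to 5, 0.00485 for ranks 6 to 20, 0.00787 for ranks 21 to 100 and 0.0158 beyond rank 100. The ratio was still higher in each band than in the band before it.

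The rank-abundance curve was described by its slope, the change in log10 count per log10 rank over the first 100 tRNA sequences, where a value closer to 0 means a more even library. Control pools A, B and C had slopes of -1.72, -1.71 and -1.71. Beads-depleted libraries had -1.37, -1.27 and -1.43, and RNase H-depleted libraries -1.38, -1.24 and -1.34. The group means were -1.71 ± 0.0093 for control, -1.36 ± 0.079 for beads and -1.32 ± 0.070 for RNase H (SD, n = 3). Both depleted groups were flatter than all control libraries (exact permutation p = 0.1 each), and their difference from each other of 0.039 was smaller than their SD (exact permutation p = 0.6). Slopes over ranks 10 to 100 alone, which leave out the leading sequences, averaged -1.80 for control, -1.34 for beads and -1.39 for RNase H, so the lower ranks were flatter after depletion as well.

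**Figure D3:**
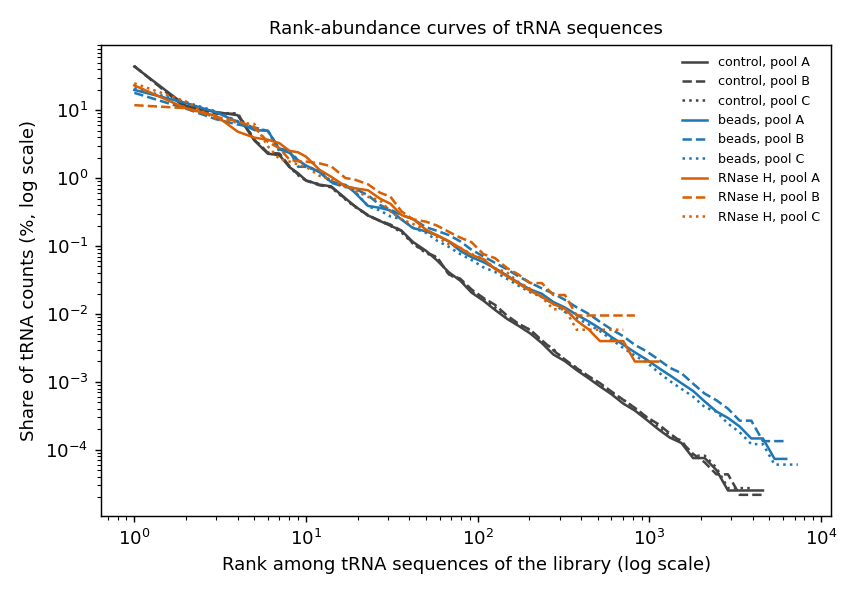
Share of the tRNA counts (%, log scale) against the rank of a tRNA sequence in its library (log scale), with a line per library, colour for the group and line style for the serum pool. The 3 control lines coincide, start highest and fall steepest, and the flat ends are sequences with the same low count.

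Evenness over all tRNA sequences was summarised by the effective number, the exponential of the Shannon entropy, which is the number of equally abundant sequences that would give the same entropy. It was 12.1, 12.2 and 12.0 in control pools A, B and C, far below the number of listed sequences. In beads-depleted libraries it was 48.6, 68.8 and 42.2, and in RNase H-depleted libraries 43.7, 70.6 and 36.5. The means of 53.2 ± 13.9 and 50.3 ± 18.0 (SD, n = 3) were 4.40 and 4.16 times the control mean of 12.1 ± 0.070 (exact permutation p = 0.1 each). Pool B had the highest value in both depleted groups and, narrowly, in control libraries. The depleted groups did not separate from each other (exact permutation p = 0.8). The inverse Simpson index, which weights the leading sequences more, averaged 4.42 for control, 13.8 for beads and 15.0 for RNase H.

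The number of distinct tRNA sequences depends on how many tRNA reads were counted. As listed, RNase H-depleted libraries had 0.202 times as many as control libraries, and beads-depleted libraries 1.496 times as many although they held fewer tRNA counts. For an equal basis, the expected number was computed for 10528 tRNA counts drawn without replacement from each library, the total of RNase H-depleted pool B. At this depth control pools A, B and C showed 263, 276 and 273 distinct tRNA sequences. Beads-depleted pools showed 755, 885 and 704, and RNase H-depleted pools 603, 825 and 601. All depleted libraries lay above all control libraries. The means were 271 ± 6.83 for control, 781 ± 93.3 for beads and 676 ± 129 for RNase H (SD, n = 3), which is 2.88 and 2.49 times the control number (exact permutation p = 0.1 each). In each pool the RNase H-depleted library had fewer than the beads-depleted one, with a mean difference of -105.1 (exact sign-exchange permutation p = 0.25, the smallest possible), but the groups overlapped (exact permutation p = 0.3). The direction for RNase H against control was thus opposite to that of the listed numbers, and the size of both ratios rested on the basis chosen: at an equal count of all listed small RNAs the ratios were 1.79 for beads and 1.24 for RNase H, and at an equal estimated coverage of 95.6% they were 9.81 and 7.19.

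**Figure D4:**
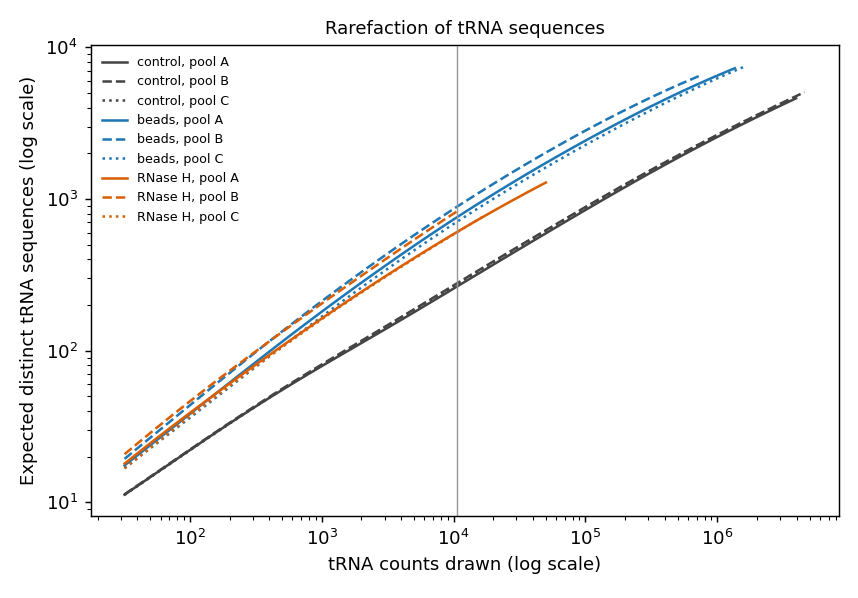
Expected number of distinct tRNA sequences (log scale) against the number of tRNA counts drawn (log scale), with a line per library that ends at its full depth, and a grey vertical line at 10528 counts. The 3 control lines run together below all depleted lines from the start, and no line levels off.

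The higher number at equal depth was also seen without the leading sequences. With the 20 most abundant tRNA sequences of each library left out and 3505 of the remaining tRNA counts drawn from each, the mean expected number was 506 for control, 885 for beads and 727 for RNase H (exact permutation p = 0.1 for each pair of groups). The ratios to control were 1.75 for beads and 1.44 for RNase H, lower than with all sequences. This basis was chosen after the values were seen. The share of the tRNA pool already represented among the listed sequences, estimated by Good-Turing coverage from the number of singletons, was 99.95% in each control library, 99.69% to 99.84% in beads-depleted and 95.59% to 98.85% in RNase H-depleted libraries. By this estimate few further tRNA reads would be of sequences not yet listed, although the number of distinct sequences still rose with depth.

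Most members were rare. Sequences with a single count, singletons, numbered 1890, 2083 and 1836 in control pools A, B and C, 2579, 2319 and 2679 in beads-depleted pools, and 577, 464 and 398 in RNase H-depleted pools. They were 40.1% to 41.1% of the distinct tRNA sequences in control, 35.4% to 35.6% in beads-depleted and 44.9% to 56.2% in RNase H-depleted libraries. Of the tRNA counts they made up 0.0455% to 0.0503%, 0.163% to 0.312% and 1.15% to 4.41%. At the equal depth of 10528 counts, the expected singleton share of the distinct sequences was 52.4% to 52.6% in control, 56.1% to 56.4% in beads-depleted and 51.5% to 56.2% in RNase H-depleted libraries. The beads-depleted libraries lay 3.78 percentage points above control on average and did not overlap with them (exact permutation p = 0.1). This order turned with depth, since the difference was -5.21 points at full depth and -7.13 points at 742691 counts. RNase H-depleted libraries overlapped with both other groups at 10528 counts (exact permutation p = 0.7 against control and 0.2 against beads).

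Between the singletons and the leading sequences, beads-depleted libraries listed more sequences than control libraries in each class under 1000 counts. Sequences with 2 to 9 counts numbered 1686 to 1801 in control and 2652 to 3021 in beads-depleted libraries, a ratio of the means of 1.66. For 10 to 99 counts the numbers were 760 to 868 and 1191 to 1347 (ratio 1.62), and for 100 to under 1000 counts 192 to 226 and 290 to 390 (ratio 1.71). From 1000 to under 10000 counts there were 62 to 63 sequences in control and 60 to 76 in beads-depleted libraries, and these ranges overlapped. At 10000 counts or more the order was the opposite, with 23 to 29 sequences in control and 11 to 19 in beads-depleted libraries. These few sequences held 91.6% to 92.9% of the tRNA counts of control libraries and 62.0% to 77.5% of those of beads-depleted libraries. In RNase H-depleted libraries 1 sequence of pool A reached 10000 counts and none of pools B and C did, and sequences with 1000 to under 10000 counts numbered 9, 2 and 5. The classes are raw counts at full depth. The tRNA totals were only 50119, 10528 and 17034 counts in RNase H-depleted pools A, B and C, so few sequences could reach the upper classes. Control libraries also held more tRNA counts than beads-depleted ones, so a class limit is not the same share of the total in both.

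The sequence numbers place the tRNA sequences among all sequences of a library. Of the numbers 1 to 100, 46, 44 and 43 were tRNA in control pools A, B and C, and none belonged to another listed class. In beads-depleted libraries 20, 18 and 23 were tRNA, and in RNase H-depleted libraries 1, 0 and 0. The 3 groups did not overlap (exact permutation p = 0.1 for each pair). The other numbers up to 100 were 54 to 57 in control, 76 to 82 in beads-depleted and 96 to 98 in RNase H-depleted libraries. At most 3 piRNA sequences came beside them. These other numbers are miRNAs or sequences listed in no class. In RNase H-depleted pools A and C, the tRNA sequences numbered 137 and 110 had 5312 and 4222 counts. Each count exceeded all listed counts of its library outside tRNA, piRNA and rRNA, miRNAs included. The other numbers up to 100 in pools A and C were therefore not listed miRNAs. For pool B this could not be told from these values. The first tRNA sequence had number 1 in all control libraries, 4, 7 and 4 in beads-depleted pools A, B and C, and 79, 300 and 110 in RNase H-depleted pools. Among the numbers 1 to 1000, between 260 and 270 were tRNA in control, 161 to 203 with beads and 6 to 13 with RNase H. Beads-depleted libraries were thus closer to control libraries over the first 1000 numbers than over the first 100.

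**Figure D5:**
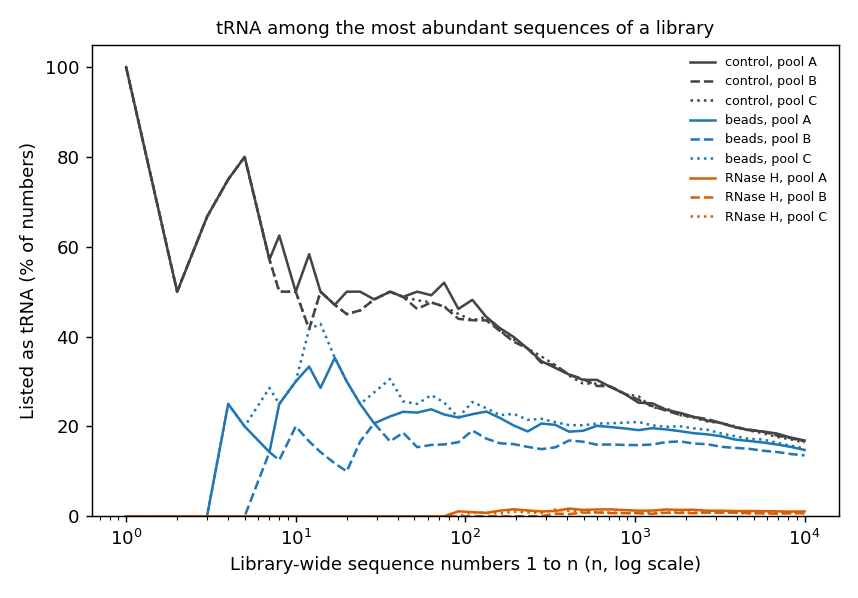
Share of the library-wide sequence numbers 1 to n that are listed as tRNA (%, y axis) against n (log scale), with a line per library, colour for the group and line style for the serum pool. Control lines lie highest and start at 100% because number 1 is a tRNA sequence, beads-depleted lines approach them from about n = 1000 on, and RNase H-depleted lines stay near 0.

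Compared with piRNA- and rRNA-annotated sequences of the same libraries, tRNA sequences were the most concentrated class in undepleted serum. piRNAs bind Piwi proteins and silence transposons in the germ line, and rRNA is the RNA of the ribosome. At 1078 counts of each class, control libraries showed an expected 82.0 to 84.2 distinct tRNA sequences, 438 to 457 piRNA sequences and 165 to 199.8 rRNA sequences. The top 5 sequences at this depth held 76.7% ± 0.384 of the tRNA, 25.8% ± 1.20 of the piRNA and 60.5% ± 6.59 of the rRNA counts (SD, n = 3). tRNA lay on the same side of both classes in all 3 control pools (exact sign-exchange permutation p = 0.25, the smallest that 3 libraries allow). In beads-depleted libraries, tRNA had 196 ± 23.9 distinct sequences at this depth against 503 ± 19.5 for piRNA and 227 ± 4.22 for rRNA (SD, n = 3), again with fewer tRNA sequences in all 3 pools (exact permutation p = 0.25 each). In RNase H-depleted libraries the number for tRNA, 184 ± 25.8, was close to that for piRNA, 193 ± 8.17, and pool B had the opposite order to pools A and C (exact permutation p = 0.5). There the top 5 share was lower for tRNA than for piRNA in all 3 pools, at 50.6% ± 7.85 against 58.7% ± 4.73 (SD, n = 3, exact permutation p = 0.25), while in control and beads-depleted libraries it was higher for tRNA in all 3 pools. Against rRNA, tRNA remained the more concentrated class in all 3 RNase H-depleted pools. It had 184 ± 25.8 against 212 ± 23.3 distinct sequences, and a top 5 share of 50.6% ± 7.85 against 34.4% ± 10.2 (SD, n = 3, exact permutation p = 0.25 each).

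The serum pools were nearly alike before depletion and differed after it, with pool B apart in both depleted groups. Beads-depleted pool B had the lowest tRNA count, the lowest top 1, 5, 20 and 100 shares, the flattest slope and the most distinct tRNA sequences at equal depth of its group, and the same was true of RNase H-depleted pool B. Control pool B had the highest tRNA count of its group. The SD of the top 5 share was 0.193 percentage points for control, 4.41 for beads and 7.68 for RNase H. With pool B left out, the 9 main measures (distinct sequences and singleton share at equal depth, top 1, 5, 20 and 100 shares, slope, effective number and tRNA sequences among the numbers 1 to 100) kept the direction of each depleted group against control, except for the singleton share after depletion with RNase H, where the difference was then -0.320 points. Where the groups did not overlap, the kept direction was fixed in advance, since leaving out a pool cannot reverse it. Only the sizes could move. For distinct sequences at equal depth, the difference from control was 461.0 for beads and 333.4 for RNase H without pool B. With all pools it was 510.2 and 405.1. In the beads group pool C had the highest tRNA count and the highest top shares, but in the RNase H group pool A had the highest tRNA count and pool C the highest top shares. The part of the tRNA count in these values was not tested beyond the draws at equal depth.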

How the data were processed

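Small RNA libraries (TruSeq, 15 PCR cycles) were made from 9 RNA fractions of mouse serum. The authors removed adapters (Cutadapt v1.8.1), discarded reads under 15 bases, filtered on quality with the FASTX-Toolkit, mapped to GRCm38/mm10 with Bowtie (v1.1.2) allowing no mismatch, and annotated reads by position. The deposited values are raw counts per distinct sequence for non-miRNA classes and raw counts per mature miRNA, without normalization. The miRNA counts were used only in the listed total of a library. Reads with a modified base read as another base, an added CCA end or an error could fail the exact match and are then absent from these counts.

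Rows with the class tRNA were taken from each library. In every library no sequence number was repeated and counts never rose with the number. No test across features was possible, because rows cannot be matched between libraries. Rarefied numbers of distinct sequences and singletons are exact hypergeometric expectations. Other values at equal depth are means of 100 seeded draws. Slopes are least squares fits of log10 count on log10 rank, ranks 1 to 100. Groups were compared over all 20 assignments of 3 and 3 libraries (Python 3.11.15, NumPy 2.4.6, SciPy 1.17.1), with the label of the serum pool as a block in an alternative. The functions were tested on simulated data. Members, measures and the sequences described singly (ranks 1 to 5) were chosen with earlier results of these data known, and the rank bands (also with each pool left out) and the basis without the 20 most abundant sequences after their values were seen. Alternatives covered the depth, the denominator, the ranks fitted, the index, the pairing and each pool left out.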

Additional observations from a re-analysis of the deposited data

How the results depend on the processing

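No comparison could pass 0.05 in this design, so the alternatives were judged by direction and by whether the groups separated. Across 39 results and 238 alternatives, 203 kept both, and 17 had the opposite direction. Where groups did not overlap, leaving out or pairing pools could not change direction or separation. The same holds for leaving out a pool where all pools had the same direction between classes. Such alternatives are counted in these numbers and below, so the tally is not a measure of robustness. Depleted against control libraries kept direction and separation for all top shares, the slope, the effective number and the sequence numbers under every alternative run, and the number of distinct sequences did so except for RNase H without depth correction, a difference of -3795. The serum pools pair the libraries, since the labels give each pool's RNA to all groups. With this replicate block the mean differences were the same by construction (510.2 distinct sequences for beads against control, exact sign-exchange permutation p = 0.25, the smallest possible), and against beads the RNase H-depleted libraries then lay on one side in all pools for distinct sequences (-105.1), the top 20 share (-1.74 points) and the top 100 share (1.53 points).

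The difference in the singleton share, for beads against control, was -5.21 points without depth correction and -7.13 points at the smallest tRNA total of both groups. For RNase H against control it was 10.2 points without depth correction and 2.10 points as a share of drawn counts, and -0.320 to 1.96 points with 1 pool left out. For RNase H against beads it was 15.4 points without depth correction and -4.20 to -1.74 points with 1 pool left out.

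RNase H against beads, where the groups overlapped, separated for distinct sequences without depth correction (-6154), at an equal listed total (-316.3), without singletons (-343.8) and without the 20 most abundant sequences (-158.0), with -127.6 to -81.8 when 1 pool was left out. Singletons were removed at full depth, before the draw. They were then 44.9% to 56.2% of the distinct sequences with RNase H and 35.4% to 35.6% with beads. That alternative thus took an unlike part from the groups. Without the 20 most abundant sequences the effective number also separated (-241.2). This was taken at full depth, where RNase H-depleted libraries held far fewer tRNA counts, so depth was not equal. With all sequences it was higher with RNase H by the inverse Simpson index (1.22) and in draws at equal depth (1.69). As shares of all listed counts the top 1 and top 100 differences were -2.47 and -11.1 points, and with 1 pool left out they were -1.43 to 3.49 and 1.25 to 1.76 points. The slope difference was -0.050 over ranks 10 to 100, and 0.021 and separated with library-wide numbers. Slopes over ranks 1 to 1000 could not be fitted for RNase H-depleted libraries, as some list fewer sequences.

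Against the other classes at full depth, tRNA had more distinct sequences than piRNA in control (3557) and beads-depleted libraries (1542) and fewer in RNase H-depleted libraries (-1107), and more than rRNA in all groups (4470, 6332 and 681), because the class totals are then unequal. The difference from piRNA in RNase H-depleted libraries was -20.0 to -1.86 with 1 pool left out.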
